A study of Homo sapiens with 4 samples.

Results

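Lactylation is the attachment of a lactyl group to a lysine, and 10 genes that encode proteins known to add or remove it are described here across 4 PAS-seq libraries of esophageal squamous cell carcinoma (ESCC) lines. The writers are *AARS1*, *AARS2*, *EP300* and *CREBBP*, and the erasers are *HDAC1*, *HDAC2*, *HDAC3*, *SIRT1*, *SIRT2* and *SIRT3*. PAS-seq sequences the 3′ ends of polyadenylated RNA, so each tag marks where 1 transcript was cleaved. The tables list poly(A) site clusters (PACs), and a PAC was given to a gene when its dominant site, the position with the most tags, lay within the GENCODE 44 span of that gene on the same strand. By this rule the 10 genes hold 14 of the 17627 PACs. Only protein-coding and long noncoding RNA genes were considered, and 11872 of them were given a PAC. None of the 14 PACs lies in the span of a second such gene on its strand.

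The lines are KYSE30 and TE-1, both established human ESCC lines. In each line, 1 library came from cells given 20 mM l-lactate for 24 h, as the study describes, and 1 from control cells given PBS. The study asks whether lactate acts on alternative polyadenylation, and *AARS1* and *HDAC2* are the writer and the eraser whose proteins it examines. The cell line field of the control samples names KYSE32 and TE-3, but the grouping here follows their titles and the methods of the study, which name KYSE30 and TE-1. Spearman's rho of the gene levels was 0.990 for the KYSE30 pair of libraries and 0.991 for the TE-1 pair, against 0.724 to 0.732 across lines, so each control library was closest to the line of its title.

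Levels are in TPM, which here means tags scaled to the total tags of the library. Each RNA gives 1 end, so levels of different genes can be compared without a correction for length. The libraries hold 7174991 to 10393799 tags, and 10740 genes reached 5 TPM in at least 1 library and were tested. A PAC with a single site was listed from 3.07 TPM, and other PACs from 1.06 TPM. Of squamous epithelial genes, *SFN* was listed in all libraries at 205 to 313 TPM, *TP63* at 24.2 and 32.6 TPM and *KRT6A* at 20.3 and 40.4 TPM in KYSE30 only, and *KRT5* and *KRT14* in none, counting PACs up to 1000 nt past the annotated gene end.

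Lactyl groups reach lysines in several ways. AARS1 and AARS2, the cytosolic and mitochondrial alanyl-tRNA synthetases, can use lactate directly with ATP, a reaction close to the charging of tRNA with alanine, while EP300 and CREBBP are paralogous nuclear acetyltransferases that take lactyl-CoA as an alternative to acetyl-CoA. HDAC1, HDAC2 and HDAC3 are zinc-dependent class I deacetylases of nuclear corepressor complexes, and SIRT1, SIRT2 and SIRT3 are NAD-dependent deacylases found mainly in the nucleus, the cytosol and the mitochondria.

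Because the transcripts were read at their 3′ ends, the sequence before each cleavage site is the direct readout of these genes. The main sites of every member but *SIRT2*, with the second sites on which the usage comparisons rest, are shown as the 30 nt that end at the dominant site, 5′ to 3′ along the RNA and written as DNA of GRCh38, with the poly(A) signal or its variant in capitals.

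HDAC1, chr1:32333595-32333624, plus strand: gcctctttgtAATAAAatggtacatttcta

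HDAC3, chr5:141620881-141620910, minus strand: atccAATAAActaagtcggtattttttgta

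HDAC2, chr6:113940717-113940746, minus strand: aattatctttATTAAAaaattgtacttgga

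AARS1 in KYSE30, chr16:70252393-70252422, minus strand: ttgctgcagagAATAAAaggaccacgtgca

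AARS1 in TE-1, chr16:70252386-70252415, minus strand: agagAATAAAaggaccacgtgcaatactta

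AARS2 proximal, chr6:44299691-44299720, minus strand: cttctttcattaacaatgacctctaattta

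AARS2 proximal in KYSE30 with l-lactate, chr6:44299560-44299589, minus strand: aacaggaAATAAAgcaaaagaagagggtca

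AARS2 distal, chr6:44298731-44298760, minus strand: aaattctgtctAGTAAAaattattcgagca

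EP300, chr22:41180040-41180069, plus strand: ttattacctattgttaAATAAActgtgtga

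CREBBP proximal, chr16:3726827-3726856, minus strand: tatatcatattgttaAATAAActgtgtgca

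CREBBP distal, chr16:3725066-3725095, minus strand: tggtgtttatAATAAAagatggtaaaacta

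SIRT1 in the 3′ UTR, chr10:67918355-67918384, plus strand, ending 1 nt before the site: ATTAAAattgtcatttgacttttttctgtt

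SIRT1 in an intron in the TE-1 control, chr10:67898887-67898916, plus strand: tacttaatatAATAAActtactttctgtga

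SIRT3 proximal, chr11:216138-216167, minus strand: catgaAATACAtttagtctcctcaaaggga

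SIRT3 distal, chr11:215427-215456, minus strand: taaaaagAATGAAgttagtttctaacccta

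Of the 14 PACs, 13 lay in the 3′ UTR of the MANE Select transcript, all in its last exon, and the remaining PAC lay in an intron of *SIRT1*. AAUAAA stood within 50 nt upstream of the main site in 7 PACs, and AUUAAA without AAUAAA in 3, those of *HDAC2* and *SIRT2* and the 3′ UTR PAC of *SIRT1*. Both *SIRT3* PACs and the distal *AARS2* PAC carried a single-base variant, and the proximal *AARS2* PAC had none at the site used in 3 libraries. Over 17621 PACs of the series, 66.4% held AAUAAA, 16.7% held AUUAAA alone and 16.9% held neither. UGUA, the motif that NUDT21 is known to bind, stood within 100 nt upstream of the main site on the RNA strand in 8 of the 14 PACs, against 57.0% of all PACs.

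*EP300* and *CREBBP*, which lie on chromosomes 22 and 16, had the same 21 nt around the signal of their main sites, tattgttaAATAAActgtgtg, with the hexamer in capitals. The run occurred in the 50 nt window of 2 of 17621 PACs, which are these. The signal ended 8 nt before the *EP300* site and 9 nt before that of *CREBBP*. The genomic 10 nt after the proximal *CREBBP* site held 7 A, a count reached by 1.60% of all PACs, and internal priming on such a stretch was not tested.

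*HDAC1* was the most abundant of the 10 transcripts in every library. Its level was 427 TPM in the KYSE30 control, 414 TPM in KYSE30 with l-lactate, 236 TPM in the TE-1 control and 226 TPM in TE-1 with l-lactate. *AARS1* followed at 159.7, 166, 178 and 189 TPM in the same order, a range of 1.18-fold, the narrowest of the 10. The mean order over the libraries then ran *HDAC2*, *CREBBP*, *HDAC3*, *EP300*, *AARS2*, *SIRT1*, *SIRT3* and *SIRT2*. The ranges of neighbours in this order overlapped for *CREBBP* with *HDAC3*, *AARS2* with *SIRT1* and *SIRT1* with *SIRT3*, and not for the other neighbours.

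The class I HDACs together held 618 and 629 TPM in KYSE30 and 387 and 395 TPM in TE-1, control first. The 3 sirtuins together held 36.0, 36.2, 44.1 and 42.2 TPM, less than any 1 of *HDAC1*, *HDAC2* and *AARS1*. Among paralogues, *AARS1* had 7.60, 10.1, 8.41 and 8.99 tags for each tag of *AARS2*. *EP300* held 28.7%, 26.6%, 33.3% and 32.0% of the tags of *EP300* and *CREBBP*, so *CREBBP* had more tags in all 4 libraries. Most of the *CREBBP* tags lay in its proximal PAC, where internal priming was not tested. Its distal PAC alone held 101, 73, 85 and 42 tags, against 270, 232, 256 and 217 for *EP300*.

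**Figure D1:**
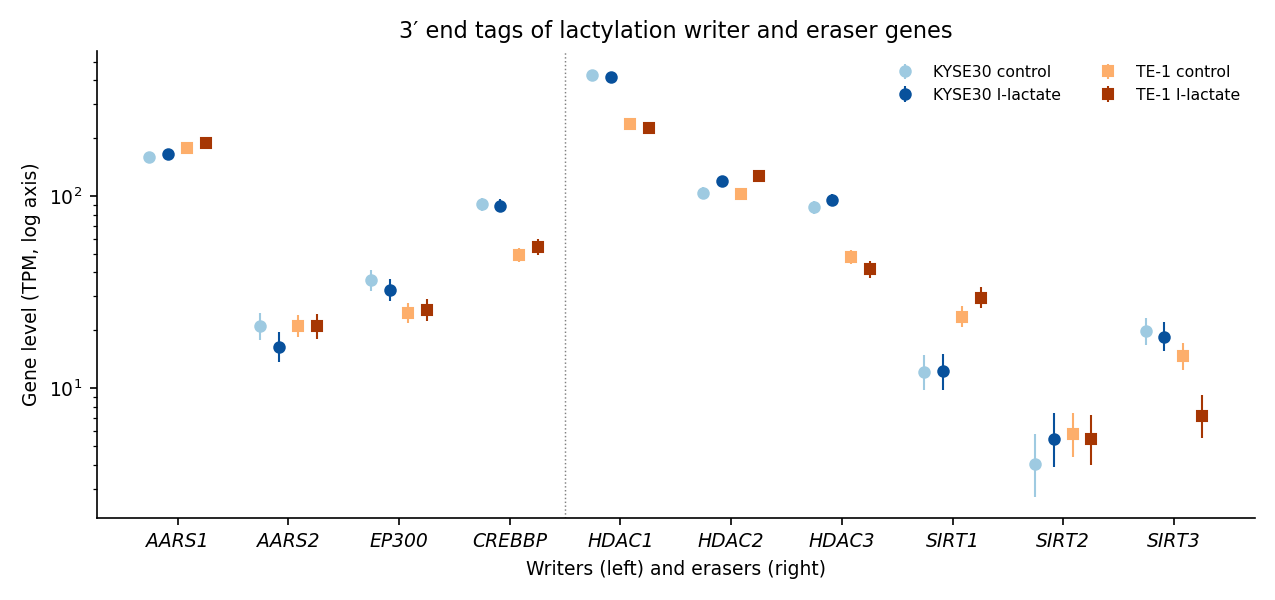
Gene level in TPM on a log axis for the 4 writers and 6 erasers in each library, with bars for the exact 95% Poisson interval of the tags, which covers counting error only. *HDAC1* lies highest in every library, between 226 and 427 TPM, and *SIRT2* lowest, between 4.04 and 5.77 TPM.

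*HDAC1* ended 580 nt past the stop codon, *HDAC3* 587 nt, *SIRT2* 591 nt, *EP300* 1113 nt and *SIRT1* 1792 nt, in all 4 libraries. All *HDAC2* tags fell in 1 PAC that ended 341 nt past the stop codon, and no PAC was listed at the annotated end of its MANE Select transcript on chromosome 6 at 113933028. *EP300* was the tightest of the multi-site PACs, with 93.1% to 94.5% of its tags at the dominant position. *AARS1* had the lowest share at its dominant position, 29.7% to 31.0%, with quantile positions 100 nt apart, while those of the proximal *CREBBP* PAC were 177 to 206 nt apart.

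The first comparison asks whether l-lactate changed the level of these transcripts. With 1 library per condition in each line there is no spread between cultures, so ratios within a line are given with an exact conditional binomial 95% interval that covers counting error only. In bulk RNA, fewer cells of a kind and less RNA per cell cannot be told apart. A limma fit with line as a block used all 4 libraries, and its residual is the difference of the response between the lines. It called 0 of 10740 genes at an adjusted p of 0.05 (0.0%), and 1063 genes (9.9%) had an unadjusted p under 0.05. Other settings of the same fit called between 0 and 200 genes.

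None of the 4 writers was called. *AARS1* was 1.04 times its control level in KYSE30 (0.958 to 1.13) and 1.06 times in TE-1 (0.992 to 1.14). Its limma coefficient was 0.070 on the log2(TPM + 1) scale (SE 0.072, adjusted p = 0.82). *AARS2*, its mitochondrial counterpart, was listed at 21.0 and 16.4 TPM in KYSE30 and 21.2 and 21.0 TPM in TE-1, control first. The ratio was 0.783 in KYSE30, with an interval that reached 1.00, and 0.993 in TE-1. *CREBBP* stood at 90.5 and 89.1 TPM in KYSE30 and 49.3 and 54.4 TPM in TE-1, for ratios of 0.984 and 1.11. The values of *EP300* were 36.4 and 32.3 TPM in KYSE30 and 24.6 and 25.6 TPM in TE-1, for ratios of 0.889 and 1.04. Both acetyltransferases thus lay on opposite sides of 1 in the lines, with intervals that included 1. The adjusted p from limma was 0.78 for *AARS2*, 0.91 for *CREBBP* and 0.94 for *EP300*.

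Among the class I erasers, *HDAC2* was the member whose counting interval lay above 1 in both lines. It was listed at 104 TPM in the KYSE30 control and 119 TPM with l-lactate, and at 103 TPM in the TE-1 control and 128 TPM with l-lactate. The l-lactate libraries were the higher ones, and the groups of 2 did not overlap. The ratio was 1.15 (1.04 to 1.27) in KYSE30 and 1.24 (1.14 to 1.35) in TE-1. Of all genes tested, 4.0% had such an interval above 1 in both lines. The limma coefficient of *HDAC2* was 0.26 (SE 0.081, unadjusted p = 0.0113), which did not pass the adjustment over all genes (adjusted p = 0.42). *HDAC1*, the paralogue of *HDAC2*, had ratios of 0.971 (0.924 to 1.02) and 0.958 (0.902 to 1.02), both below 1 with intervals that included it (limma adjusted p = 0.88). The share of *HDAC1* among the tags of *HDAC1* and *HDAC2* was 80.5% (79.2% to 81.7%) in the KYSE30 control and 77.6% (76.3% to 78.9%) with l-lactate. In TE-1 it was 69.7% (68.1% to 71.2%) and 63.9% (62.2% to 65.6%), so the share was lower with l-lactate in each line beyond counting error.

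*HDAC3*, the catalytic subunit of the NCOR and SMRT complexes, had ratios on either side of 1 in the lines, with a KYSE30 interval that included 1. Its level was 87.3 TPM in the KYSE30 control and 95.3 TPM with l-lactate, a ratio of 1.09 (0.980 to 1.22). In TE-1 it was 48.2 TPM in the control and 41.4 TPM with l-lactate, a ratio of 0.860 (0.748 to 0.987). The TE-1 ratio was 0.787 times the KYSE30 ratio (0.662 to 0.936, counting error only). Among the 10 members the counting interval of this difference excluded 1 for *HDAC3* and *SIRT3*. It did so in 21.8% of the genes with tags in all 4 libraries. Across the lines the limma coefficient was -0.043 (SE 0.11, adjusted p = 0.95).

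The sirtuins had fewer tags and wider intervals. *SIRT1* was at 12.1 and 12.3 TPM in KYSE30, control first, and at 23.6 and 29.5 TPM in TE-1, for ratios of 1.01 (0.746 to 1.37) and 1.25 (1.05 to 1.50). *SIRT2* was listed with 30, 39, 60 and 46 tags, and its ratios of 1.35 and 0.941 had intervals from 0.815 to 2.24 and from 0.627 to 1.40. *SIRT3* had 147 and 133 tags in KYSE30 and 153 and 61 tags in TE-1. The TE-1 library with l-lactate was the low one, at 7.20 TPM against 14.7 to 19.8 TPM in the other 3. The ratio was 0.936 (0.735 to 1.19) in KYSE30 and 0.489 (0.358 to 0.662) in TE-1, and the TE-1 ratio was 0.523 times the KYSE30 ratio (0.358 to 0.763, counting error only). In limma the coefficient of *SIRT3* was -0.51 (SE 0.21, unadjusted p = 0.038, adjusted p = 0.48). The adjusted p was 0.80 for *SIRT1* and 0.91 for *SIRT2*.

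Part of the TE-1 value of *SIRT3* rests on a PAC that was not listed. The distal PAC, which has a single site, held 40 and 33 tags in KYSE30 and 36 tags in the TE-1 control, and was below the listing limit in TE-1 with l-lactate. At the lowest TPM listed for a single-site PAC in that library, 3.07, *SIRT3* would reach 10.3 TPM, or 0.698 times the control, a change of -0.48 on the log2(TPM + 1) scale. The proximal PAC, listed in all libraries, was 0.640 times its control level in TE-1 (0.462 to 0.879) and 0.967 times in KYSE30 (0.729 to 1.28).

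Counted by size, no member was past 0.5 on the log2(TPM + 1) scale in KYSE30, where 7.66% of all genes were, and 1 member, *SIRT3* at -0.94, was in TE-1, where 7.28% of all genes were and 2.91% were lower. With the unlisted *SIRT3* PAC at its limit, that count was 0. The counting interval excluded 1 for 1 of 10 members in KYSE30, *HDAC2*, against 23.6% of all genes. In TE-1 it did so for 4 of 10, *HDAC2* and *SIRT1* above and *HDAC3* and *SIRT3* below, against 29.2% of all genes. The median change of the members was -0.0035 in KYSE30 and 0.023 in TE-1, next to 0.00 and 0.017 over all genes.

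**Figure D2:**
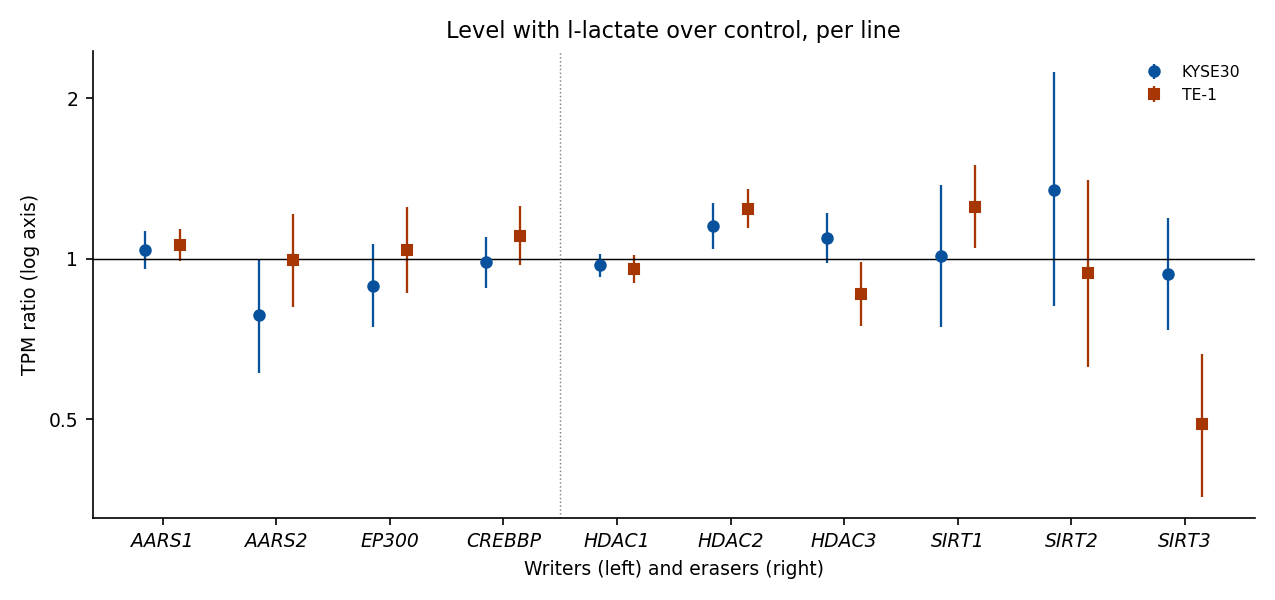
Ratio of the TPM with l-lactate to that of the control on a log axis, for each gene in KYSE30 and TE-1, with bars for the 95% counting interval of 1 library against 1 library. *HDAC2* lies above 1 in both lines (1.15 and 1.24), *HDAC3* lies on either side of it (1.09 and 0.860), and *SIRT3* in TE-1 is lowest (0.489).

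The next comparison asks whether l-lactate changed which PAC these genes used. Of the members, 4 had 2 PACs (40.0%) and 6 had 1 (60.0%), while 24.5% of protein-coding genes had 2 and 65.1% had 1. *CREBBP* has PACs 891 and 2652 nt past the stop codon, and the distal one held the smaller share. That share was 15.0% (12.5% to 17.9%) in the KYSE30 control and 11.4% (9.18% to 14.1%) with l-lactate. In TE-1 it was 16.6% (13.6% to 20.1%) in the control and 9.11% (6.81% to 12.1%) with l-lactate. The l-lactate libraries had the 2 lowest shares. The difference was -3.61 percentage points in KYSE30 (-7.27 to 0.08) and -7.49 in TE-1 (-11.7 to -3.29), with Newcombe intervals for counting error. In KYSE30, 34.6% of genes with at least 2 PACs of 5 TPM or more changed a share by at least 5 percentage points. The value for TE-1 was 38.4%. Genes with a lower distal share in both lines were not counted. The TE-1 difference came with 42 distal tags against 85 and with 419 proximal tags against 427, in libraries of unequal depth. Relative to depth, the distal PAC was 0.606 times its control level (0.409 to 0.888) and the proximal PAC 1.20 times (1.05 to 1.38).

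*AARS2* divided its tags nearly evenly between PACs 856 and 1816 nt past the stop codon. The distal PAC held 57.1% (49.2% to 64.6%) of tags in the KYSE30 control and 58.5% (49.5% to 67.0%) with l-lactate. In TE-1 it held 44.5% (38.1% to 51.2%) in the control and 52.8% (45.5% to 60.0%) with l-lactate. The differences of 1.42 percentage points in KYSE30 and 8.26 in TE-1 (-1.59 to 17.9) both had counting intervals that included 0. *SIRT3* used its distal PAC, 1271 nt past the stop codon, for 27.2% (20.7% to 34.9%) and 24.8% (18.2% to 32.8%) of tags in KYSE30 and 23.5% (17.5% to 30.8%) in the TE-1 control. In TE-1 with l-lactate the PAC could hold up to 29.9% of the *SIRT3* tags without being listed, so no change in usage can be read there.

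The intronic *SIRT1* PAC was listed in TE-1 only. It held 32 tags or 13.1% (9.41% to 17.9%) in the control and 20 tags or 8.0% (5.24% to 12.0%) with l-lactate. The difference in TE-1 was -5.06 percentage points, with an interval that included 0 (-10.6 to 0.38). At the TE-1 control share the PAC would have held 1.82 TPM in the KYSE30 control, with 1.02 TPM at its dominant site and 0.797 TPM elsewhere. The authors dropped sites under 1 TPM and then PACs left with a single site under 3 TPM, so the share in KYSE30 is not known to be lower.

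By the call of 10 percentage points, which needs at least 2 PACs of 5 TPM or more in a library of the line, 0 of 3 members measured changed in KYSE30, where 11.5% of all such genes did. In TE-1 0 of 2 members were called, against 13.4% of all such genes. With the minimum lowered to 1 TPM, *SIRT3* was called in TE-1 through its unlisted PAC.

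Within PACs, the dominant site could be compared at more than 5 TPM in 11 member PACs per comparison. With l-lactate it moved past 24 nt in 1 of 11 in KYSE30, against 1.43% of all PACs, and in 0 of 11 in TE-1, against 1.24%. The PAC that moved was the proximal one of *AARS2*. Its dominant site lay 856 nt past the stop codon in the KYSE30 control and in both TE-1 libraries, and 131 nt further downstream in KYSE30 with l-lactate. The upstream site has no signal of the AAUAAA family within 50 nt, and the downstream site has AAUAAA 17 nt before it, as the sequences above show. The change rests on few tags, since the upstream site held 29 of 67 tags in the control (43.3%) and the downstream site 20 of 49 with l-lactate (40.8%). The tables give tags for the dominant position alone, and counting error aside the upstream site fell by at least 2.47 percentage points. The quantile positions of this PAC were the same in all 4 libraries. By the upper quantile position, the 1 member PAC that moved past 24 nt in KYSE30 was instead the proximal one of *CREBBP*, by 29 nt.

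The proximal *CREBBP* site held 66.2% of the tags of its PAC in the KYSE30 control and 58.5% with l-lactate, a difference of -7.72 percentage points (-13.3 to -2.09). In TE-1 the same share was 59.0% and 63.2%, in the other direction. No other member PAC with an unmoved dominant site had a share that differed beyond counting error with l-lactate. These 95% intervals were not adjusted for the number of PACs compared.

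The last comparison is between the lines, with l-lactate and control libraries as its 2 values per line. The limma fit called 7952 of 10740 genes (74.0%), so a call here is common, and 6 of the 10 members were called. The median coefficient was -0.13 over the writers and -0.39 over the erasers, next to -0.020 over all genes. With 1 line on each side, line and any other difference between these cultures cannot be told apart.

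The 5 members called lower in TE-1, where 37.8% of all genes were called lower, were both acetyltransferases, *HDAC1*, *HDAC3* and *SIRT3*. The *HDAC1* coefficient was -0.86 (SE 0.065, limma adjusted p = 2.39e-06), with 226 and 236 TPM in TE-1 against 414 and 427 TPM in KYSE30. The *HDAC3* coefficient was -1.01 (SE 0.11, limma adjusted p = 2.29e-05), and the TE-1 level was 0.552 times that of KYSE30 in controls and 0.435 times with l-lactate. For *CREBBP* the coefficient was -0.78 (SE 0.094, limma adjusted p = 5.03e-05), larger in size than the -0.43 of *EP300* (SE 0.12, limma adjusted p = 0.0107). *SIRT3* had -0.83 (SE 0.21, limma adjusted p = 0.00586), and its TE-1 ratio was 0.744 in controls (0.589 to 0.939) and 0.389 with l-lactate (0.282 to 0.530). *SIRT1* alone was called higher in TE-1, where 36.2% of all genes were, at 23.6 and 29.5 TPM against 12.1 and 12.3 TPM. Its coefficient was 1.05 (SE 0.15, limma adjusted p = 0.000172). The intronic *SIRT1* PAC and the distal *SIRT3* PAC count as 0 where they were not listed. With only PACs listed in all 4 libraries, the coefficient was 0.90 for *SIRT1* and -0.60 for *SIRT3*. For each of these 6 genes the KYSE30 and TE-1 libraries did not overlap, a pattern whose share over all genes was not computed. The direction was the same in the l-lactate libraries alone, whose line labels are not in question but which are also part of the fit. Between those libraries the counting interval excluded an equal level for 78.5% of all genes tested.

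The other 4 members were not called. *HDAC2* had nearly the same control level in both lines, with a coefficient of 0.040 (SE 0.081, limma adjusted p = 0.67) and ratios of 0.990 (0.902 to 1.09) and 1.07 (0.975 to 1.17). *AARS1* was 1.12 times as high in TE-1 in controls (1.04 to 1.20) and 1.14 times with l-lactate (1.06 to 1.23). Its coefficient of 0.17 (SE 0.072) lay just outside the threshold (limma adjusted p = 0.055) and inside it under 3 alternatives. Without the variance trend it lay further outside (limma adjusted p = 0.22). *AARS2* had a coefficient of 0.17 (limma adjusted p = 0.31) and *SIRT2* of 0.21 (limma adjusted p = 0.43).

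**Figure D3:**
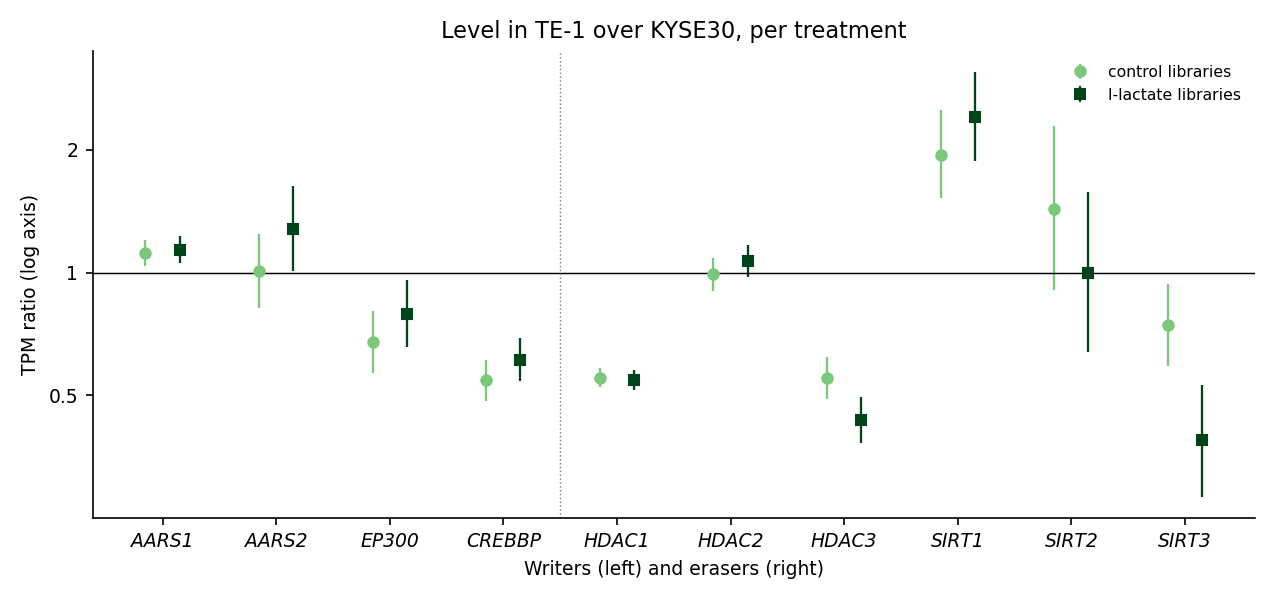
Ratio of the TPM in TE-1 to that in KYSE30 on a log axis, for each gene in the control and the l-lactate libraries, with bars for the 95% counting interval. *EP300*, *CREBBP*, *HDAC1*, *HDAC3* and *SIRT3* lie below 1 and *SIRT1* above it in both treatments, while *HDAC2* lies at 0.990 and 1.07.

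No member of 3 measured had a PAC share that differed by 10 percentage points the same way in both treatments, against 28.3% of all such genes. *SIRT3* was among these 3, and its distal share differed by -3.68 percentage points in controls and -24.8 with l-lactate. The latter value takes the PAC not listed in TE-1 with l-lactate as 0, so it cannot be read as a difference in usage. The distal *AARS2* share was lower in TE-1 in both treatments, by 12.5 percentage points in controls (2.25 to 22.4) and 5.67 with l-lactate, where the interval included 0. The intronic *SIRT1* PAC, listed in TE-1 only, was under the listing limit in KYSE30, so its share was not compared. The dominant site moved past 24 nt in 0 of 11 member PACs in controls (2.06% of all PACs) and in 1 of 11 with l-lactate (1.96%), the proximal PAC of *AARS2* again. *AARS1* used a dominant site 7 nt further downstream in both TE-1 libraries than in both KYSE30 libraries, and the AAUAAA lay 20 and 13 nt before these sites. Neither site held more than 31.0% of its tags, so the leading position differed within a spread of sites that had the same quantile positions in all libraries.

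Other genes of the pathway were taken as 6 lists by name. With l-lactate limma called 0 of 10740 genes (0.0%), so no gene of these lists could be called. Between the lines, 36.2% of all genes were called higher in TE-1 and 37.8% lower, so calls in these lists are common. Of 18 cytosolic aminoacyl-tRNA synthetases tested, 8 were called higher in TE-1 and 2 lower. Examples were *WARS1* for tryptophan at 1.60 and *IARS1* for isoleucine at -0.70 on the log2(TPM + 1) scale. The median of that list was 0.24, next to 0.17 for *AARS1* and -0.020 over all genes. Of 14 mitochondrial synthetases, 4 were called higher and 4 lower, with *CARS2* at 2.79 and *PARS2* at -1.43. Among 10 other lysine acyltransferases and suppliers of acyl-CoA, 3 were called higher and 1 lower, with *KAT2A* at 1.07 and *KAT6A* at -0.71. Of the other deacylases, 2 of 9 tested were called higher and 2 lower, and *SIRT5*, the mitochondrial desuccinylase, was at -3.39, from 38.5 TPM in both KYSE30 libraries to 2.40 and 3.19 TPM in TE-1. Partners of the class I HDACs divided as 6 higher and 6 lower of 15, with *RCOR1* at 1.91 and *NCOR1*, the scaffold that binds HDAC3, at -1.35. Of 3 readers, *SMARCA4* was called lower, at -0.41.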

How the data were processed

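The 4 deposited tables each hold the PACs of 1 PAS-seq library. Per the methods of the study and its processing notes, the authors trimmed reads with FASTX-Toolkit, aligned them to GRCh38 with HISAT2, called sites with CAGEr, dropped weak sites and joined neighbouring ones. The deposited values named TPM are RPM, the tags of a PAC or site scaled by the authors to the total tags of the library, without a length correction. Every value was a whole multiple of 1 step per library within 0.0011 TPM, from which tags and depth were inferred. The lowest value listed was 8 to 11 tags, so no value of 1 tag shows the step directly, and each tag number and counting interval rests on this inference. Intervals cover counting error only.

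Tables were joined on the PAC number. PACs not listed in a library were taken as 0. Gene TPM are sums over PACs whose dominant site lies in the GENCODE 44 span. log2(TPM + 1) of genes with at least 5 TPM in 1 library was fitted with limma 3.58.1 (R 4.3.3) with trend. Line and treatment were the terms, with Benjamini-Hochberg adjustment. The script was also run on simulated tags that gave both lines the same l-lactate change. There it called 68 of 100 genes changed by 0.5 on the log2 scale and 5 of 10540 unchanged. This checks the code and not the power in the real libraries. In the fit of the real libraries, residual degrees of freedom were 1, and limma added 7.96 prior degrees of freedom from all genes. The p-values thus rest largely on the variance trend over all genes. The gene's own part measures how alike the lines respond, not the spread between cultures. Genes named are the 10 members and, from each list, those with the largest limma change past an adjusted p of 0.05, up to 2 in each direction. The members and lists were chosen with earlier results of these data known. Python 3.11.15, SciPy 1.17.1 and pandas 2.3.3 were used. The planned edgeR test on these inferred tags was not run.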

Additional observations from a re-analysis of the deposited data

Results flagged for a closer look

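*HDAC3* lay on opposite sides of its control level with l-lactate in the 2 lines, as did *EP300*, *CREBBP* and *SIRT2*, and it was the one of these whose counting interval for the difference between lines excluded 1. The ratio to control was 1.09 in KYSE30 (0.980 to 1.22, which includes 1) and 0.860 in TE-1 (0.748 to 0.987). The TE-1 ratio was 0.787 times the KYSE30 ratio (0.662 to 0.936), and 21.8% of the genes with tags in all 4 libraries had such an interval. With 1 library per condition and line, the difference was not tested against the variation between cultures.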

How the results depend on the processing

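Of 407 values recomputed under another setting, 384 kept their direction and side of the threshold or, for counts, stayed within 1.5 times, which does not say which members were counted. Dropping the 5 TPM filter, keeping PACs in the span of 1 gene and extending spans by 1000 nt left the log2 values of all members unchanged. These settings are among the 384 but do not check those values. Counts of members past a fold with l-lactate went to 2 of 10 in KYSE30 (20.2% of all genes) and 3 of 10 in TE-1 (19.4%) past 0.3 on the log2 scale, and to 0 in TE-1 past 1. An alternative chosen after seeing the data, the unlisted *SIRT3* PAC at its listing limit, took *SIRT3* in TE-1 to -0.48 and that count to 0. Members called by PAC share in TE-1 went to 1 of 4 with a minimum of 1 TPM (20.2% of such genes) and to 2 of 2 past 5 percentage points (38.4%), where the count between lines went to 1 of 3 (49.3%). The lower quantile position in place of the dominant site gave 0 shifted member PACs with l-lactate in KYSE30 and 0 between the l-lactate libraries, the upper quantile gave 0 for the latter and 1 in KYSE30, which was *CREBBP* and not *AARS2*, and shifts of any length gave 1 between controls and 2 between l-lactate libraries. With PACs listed in all 4 libraries only, *SIRT3* in TE-1 was at -0.58. Leaving out a line turned the l-lactate coefficient of *EP300* (-0.16 to 0.055), *CREBBP* (-0.023 to 0.14), *HDAC3* (-0.21 to 0.13) and *SIRT2* (-0.075 to 0.35), and leaving out a treatment turned the line coefficient of *HDAC2* (-0.014 to 0.094) and *SIRT2* (-0.00090 to 0.43). *AARS1* passed between lines at a limma adjusted p of 0.047 to 0.048 with a pseudocount of 5, TMM scaling or PACs listed in all libraries. Its limma adjusted p rose to 0.070 with no filter and to 0.22 without the trend. The limma fit for l-lactate called 0 genes as reported, 5 with TMM, 4 with PACs in the span of 1 gene, 200 with a pseudocount of 5 and 174 with PACs listed in all libraries, and no member in any of these. The prior degrees of freedom of the fit were infinite in the settings with 200 and 174 calls, against 7.96 in the reported fit. The cause of the differing counts was not tested. The fit already pairs control and l-lactate within each line, and the labels carry no replicate numbers for a further block. The edgeR alternative was not run. Few tags limit the sirtuins, *AARS2* and the second PACs.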
